A study of Mus musculus with 6 samples.

Results

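Chemokine receptors and the egress receptor S1pr1 were followed across the immune cells of young and aged mouse brains with an intact or an antibiotic-depleted gut microbiota. The set was a fixed list of 8 genes of the 19848 in the deposited RNA table, namely Ccr1, Ccr2, Cx3cr1, Cxcr2, Cxcr3, Cxcr4, Cxcr6 and S1pr1, and all 8 were found. They were chosen by name and not by a measured value. Immune cells were enriched from whole brains of perfused female C57BL/6 mice by enzymatic dissociation and a Percoll gradient, and RNA and antibody tags were read from the same single cells. Mice of 2 ages, young (12 weeks) and aged (72 weeks), were given either vehicle, which left the gut microbiota intact (control), or antibiotics, which depleted it (antibiotic), with 6 mice in each of the 4 groups. The agents, the dose and the duration are not given in the sources used here, and no transgene or mutation is named. The 24 mice were combined into 12 pools of 2 brains, 3 pools per group, and the pool was the replicate throughout.

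All young pools were loaded in 1 well and all aged pools in another, so age and well cannot be told apart. In either well the control pools carried hashtags 1 to 3 and the antibiotic pools 4 to 6, so hashtag and treatment cannot be told apart either. The table held 13052 cells. Pools held 760 to 1590 cells and 5745242 to 13742781 raw UMIs. The median number of antibody tags per cell was 1348 in young and 209 in aged cells, and 59 cell barcodes occurred in both wells. The authors' cell types were used as deposited. They were microglia (9403 cells), CD8+ (728), Ly6CLow (634), border-associated macrophages (506, BAM below), B cells (487), Ly6CHigh (389), Ly6C+Ly6G+ (352), innate lymphoid cells (330, ILCs), CD4+ (214) and NK cells (9, not analysed).

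Marker genes were measured for each of these names. P2ry12 was above 0 in 99.7% of young and 99.2% of aged microglia, Mrc1 in 100% of BAM at both ages, and S100a8 in 100% of young and 99.1% of aged Ly6C+Ly6G+ cells, which are called neutrophils below. Other markers of these lists were above 0 in fewer cells. In BAM, Cd163 stood at 45.8% of young and 45.1% of aged cells, Pf4 at 77.9% and 74.1%, and Ms4a7 at 75.0% and 76.3%. Sall1 stood at 69.6% and 65.8% of microglia, and Ly6g at 77.2% and 62.2% of neutrophils. Only 22.3% of young and 18.9% of aged Ly6CLow cells had a value for Ace and 21.5% and 17.8% for Treml4, markers of patrolling monocytes. Nr4a1 and Spn, from the same marker list, were above 0 in 77.4% and 42.3% of young and in 81.1% and 36.1% of aged Ly6CLow cells. As these markers did not go together, the label Ly6CLow is kept without a cell type name. Ly6c2, the gene of the Ly6C antigen, was above 0 in 85.2% of young and 58.7% of aged Ly6CHigh cells. Of the aged Ly6CHigh cells, 54.7% had under 2000 raw UMIs, against 1.41% of the young ones. Among ILCs, Ncr1, a natural killer and ILC1 marker, was above 0 in 71.0% of young and 25.1% of aged cells.

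Chemokine receptors couple to inhibitory G proteins and steer leukocytes up gradients of small secreted chemokines. In brain immunology, CX3CR1 is the receptor through which microglia respond to neuronal fractalkine, CCR2 brings inflammatory monocytes out of the bone marrow, CXCR2 draws neutrophils, and CXCR3 and CXCR6 guide T cells into inflamed tissue and help hold them there. CXCR4 binds CXCL12 and retains leukocytes in bone marrow and other niches. S1PR1 senses sphingosine 1-phosphate in blood and lymph and lets lymphocytes leave tissue, while CD69 removes it from the cell surface and the transcription factor KLF2 drives its gene.

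By the RefSeq annotation of GRCm38.p6, the build that mm10 corresponds to, 4 of the 8 genes lie on chromosome 9. These are Cx3cr1 (start 120048683, end 120068296), Cxcr6 (123806477 to 123811754), Ccr1 (123962126 to 123968692) and Ccr2 (124101918 to 124109140). Cxcr2 (74153994 to 74161246) and Cxcr4 (128588199 to 128592299) lie on chromosome 1, S1pr1 (115710433 to 115715055) on chromosome 3 and Cxcr3 (101731535 to 101734147) on chromosome X.

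Antibodies to 3 of the receptors were among the 34 of the tag table. Each antibody carries a DNA barcode that is sequenced with the cell's RNA, and these barcodes are shown because the protein values below are counts of them.
CCR2: AGTGCGATCTGCAAC
CX3CR1: CACTCTCAGTCCTAT
CXCR4: GTCGTGGTGTTGTTC
All letters are barcode and are 15 bases long, as the row names of the deposited table give them. The CXCR4 barcode had 0 tags in all 6526 young cells and 486 tags in the aged cells, and CXCR4 is not in the antibody list of the submitters' design text. CXCR4 tags were therefore compared among aged pools only, and whether they measure the protein was not tested.

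RNA values are the authors' corrected UMI values, averaged per pool and cell type, and are compared within a gene only. All shares of cells above 0 are shares of corrected values, and such a value need not stand for a raw read. The corrected sum equalled the raw UMI total in 62 of 13052 cells. Levels are given as mean ± SD over pools that held at least 10 cells of the type. Group comparisons used limma across all genes of a cell type, on pools with at least 20 of its cells, and a gene was called at an adjusted p (Benjamini-Hochberg) under 0.05. Differences are log2 differences of the mean value plus 0.05, which understates the change of low genes.

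**Figure D1:**
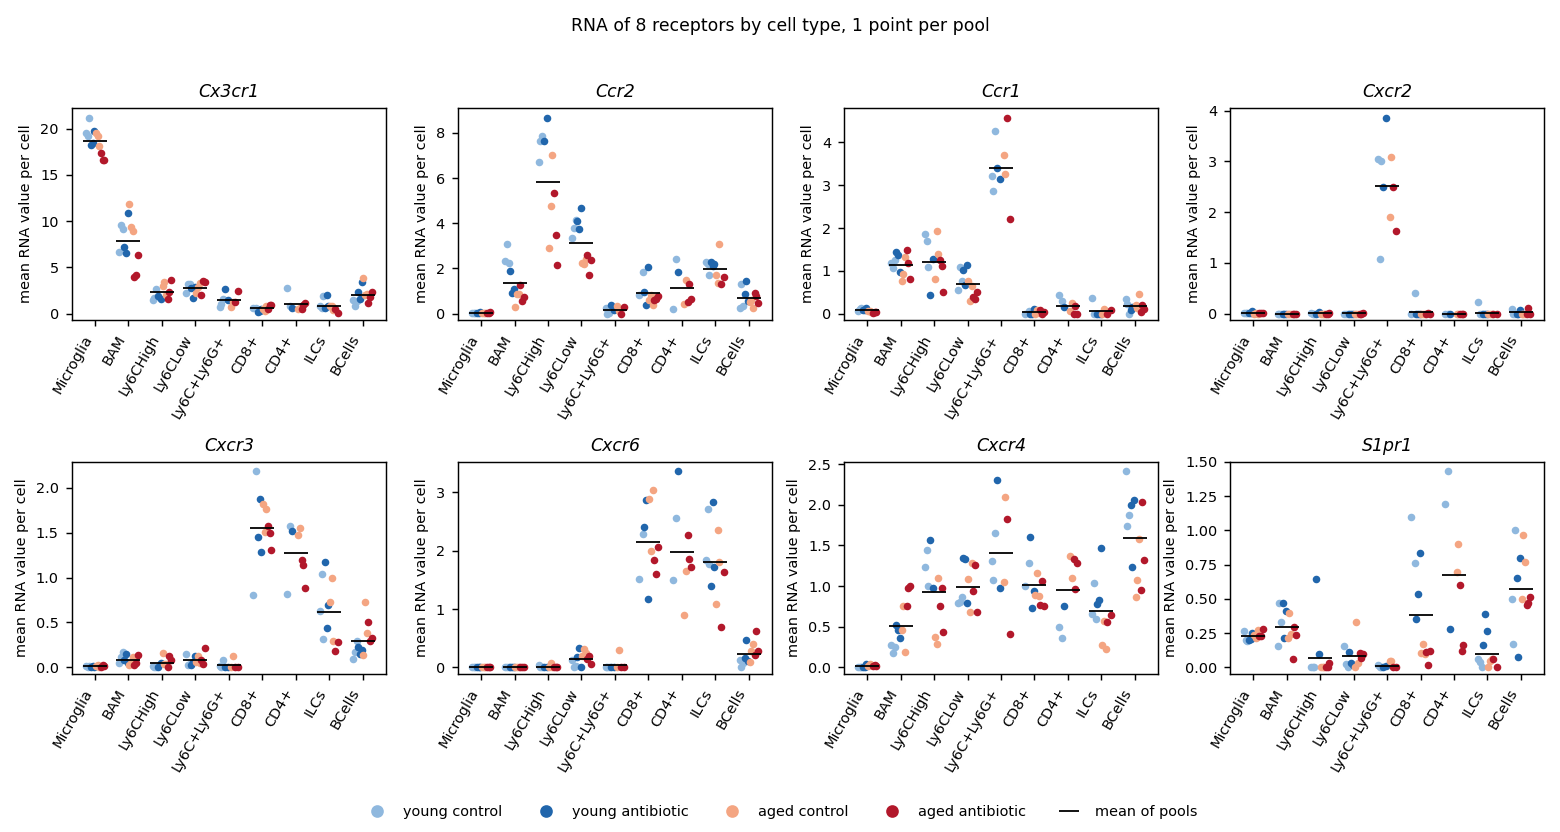
Mean RNA value per cell of each of the 8 receptors (vertical axis, linear from 0, its own scale per panel) in 9 cell types. Each point is 1 pool with at least 10 cells of the type, coloured by group, and the black bar is the mean of the pools. Cx3cr1 lies highest in microglia (18.6 ± 1.36), Cxcr2 in Ly6C+Ly6G+ cells (2.51 ± 0.859), and Cxcr6 in CD8+, CD4+ and ILCs.

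Cx3cr1 was a microglial transcript. Its level was 18.6 ± 1.36 in microglia (SD, n = 12 pools), 7.89 ± 2.50 in BAM, 2.79 ± 0.594 in Ly6CLow and 2.29 ± 0.765 in Ly6CHigh cells. Pool ranges did not overlap between microglia and BAM or between BAM and Ly6CLow, whereas all later neighbours in the order (B cells, neutrophils, CD4+, ILCs, CD8+) overlapped. Microglia were 72.1% of the cells and held 94.7% ± 2.93 of the Cx3cr1 RNA. The genes whose levels over the 9 cell types were most like those of Cx3cr1 among 9162 genes were Itgb5 (Pearson r 0.995), Abhd12 (0.995) and Trem2 (0.994), the last a microglial lipid receptor. Each such correlation rests on 9 type means from the same libraries and is a description.

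Lymphocytes also showed Cx3cr1 values above 0. These occurred in 62.4% of B cells (median 4701 raw UMIs in young and 6165 in aged) and 31.6% of CD8+ cells (8287 and 6927.5). The ratio of Cx3cr1 to the sum of P2ry12 and Tmem119, both microglial genes, was 0.997 ± 0.0402 in young and 1.00 ± 0.0406 in aged microglia. It was 1.33 ± 0.561 and 1.27 ± 0.192 in CD8+ cells and 1.65 ± 0.601 and 1.53 ± 0.424 in B cells. In Ly6CLow cells it was 3.03 ± 0.778 and 1.93 ± 0.533. The lowest B cell pools stood at 1.28 in young and 1.13 in aged mice, and the highest microglial pools at 1.05 and 1.07. Because microglial genes were measured beside it in lymphocytes, their Cx3cr1 is not assigned to a source, and the part of microglial RNA in it was not tested.

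In microglia Cx3cr1 stayed high in every group. The pools stood at 19.5, 19.2 and 21.2 in young control, 18.2, 18.4 and 19.7 in young antibiotic, 19.5, 19.2 and 18.1 in aged control, and 17.4, 16.6 and 16.6 in aged antibiotic mice. The 3 aged antibiotic pools were the lowest of the 12. The antibiotic difference was -0.17 (SE 0.07) in aged mice, with an adjusted p of 0.203 (limma), and -0.09 (SE 0.07) in young mice, with an adjusted p of 0.706. Over both ages it was -0.13 (SE 0.05), with a raw p of 0.0178 and an adjusted p of 0.136, and the difference between the ages was -0.08 (SE 0.10).

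CX3CR1 protein was also lower in the antibiotic pools. Microglia carried 141, 120 and 139 CX3CR1 tags per cell in young control, 115, 110 and 127 in young antibiotic, 19.6, 20.3 and 21.7 in aged control, and 15.6, 17.9 and 18.6 in aged antibiotic pools. Within each well the lowest control pool stood above all antibiotic pools except 1 young one. The antibiotic difference over both ages was -0.21, with an adjusted p of 0.205 by edgeR and of 0.0280 by DESeq2 (-0.22), so its call depends on the tool. Of the 34 antibodies edgeR called 0% in each antibiotic contrast in microglia (1 to 5 at a raw p under 0.05) and in Ly6CLow cells (1 to 2). DESeq2 called 2 over both ages in microglia, and limma on centred log ratios called 0. As a share of all tags, CX3CR1 made up 9.45% ± 0.771 in young and 9.23% ± 0.936 in aged microglia, and 2.59% ± 0.555 and 2.03% ± 0.556 in BAM.

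In cells labelled BAM, a name for macrophages of the meninges, choroid plexus and perivascular spaces, Cx3cr1 fell in antibiotic-treated aged mice. The pools stood at 11.9, 9.38 and 8.94 in aged control and at 3.94, 4.16 and 6.30 in aged antibiotic mice, with no overlap. The difference was -1.08 (SE 0.19), a 2.12-fold lower value with an adjusted p of 0.00981 (limma). Cx3cr1 was 1 of 6 receptors tested in this comparison, in which 0.158% of all genes were called (14 of 8870). In young mice the control pools stood at 6.67 and 9.18, while a further pool of 17 cells, at 9.59, was not in the fit, and the antibiotic pools at 7.25, 6.55 and 10.9. These overlapped, and the difference was 0.04 (SE 0.22), with an adjusted p of 0.996. A direct test of aged minus young antibiotic effect, added after the first fits, gave -1.12 (SE 0.29), with a raw p of 0.000719 and an adjusted p of 0.264. That test by limma called 0 of 8870 genes, with 692 at a raw p under 0.05, so the effect is not shown to differ between the ages.

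Microglial genes moved with Cx3cr1 in these cells. P2ry12 stood at 3.81, 1.95 and 2.29 in aged control and at 1.06, 1.32 and 1.56 in aged antibiotic BAM, and Tmem119 at 3.11, 1.68 and 2.44 against 1.09, 0.477 and 1.32. The summed level of the microglial markers P2ry12, Tmem119 and Sall1 ran from 3.75 to 7.35 in aged control and from 1.82 to 3.00 in aged antibiotic BAM, with none of them at 0. The summed level of 4 BAM markers ran from 17.4 to 21.7 and from 18.3 to 19.9. In BAM cells with no value for P2ry12, Tmem119 or Sall1, a choice made after seeing the data, the mean value was 5.49 over 35 cells of aged control and 3.41 over 41 cells of aged antibiotic mice. The fit on the 2 pools a group that held at least 10 such cells gave -0.67 (SE 0.24), with an adjusted p of 0.961. In BAM cells with any of the 3 genes the means were 11.3 over 104 cells and 5.67 over 86 cells, so the antibiotic group was lower in both classes of cells. In young mice the means were 5.15 over 26 control and 2.41 over 27 antibiotic cells without these genes, and 9.33 over 87 and 10.4 over 100 cells with any of them, so the classes went opposite ways there.

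The Cx3cr1 call in BAM was lost without aged antibiotic pool 1 (-0.96, adjusted p 0.0965), without aged antibiotic pool 2 (0.106) and without aged control pool 1 (-0.96, 0.112), by limma in each case. CX3CR1 tags in BAM, 19.1, 13.2 and 15.3 per cell in aged control and 9.76, 10.5 and 14.3 in aged antibiotic pools, overlapped. Their edgeR difference was -0.35 (adjusted p 0.720), and in young mice it was -0.28 (adjusted p 1.00).

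**Figure D2:**
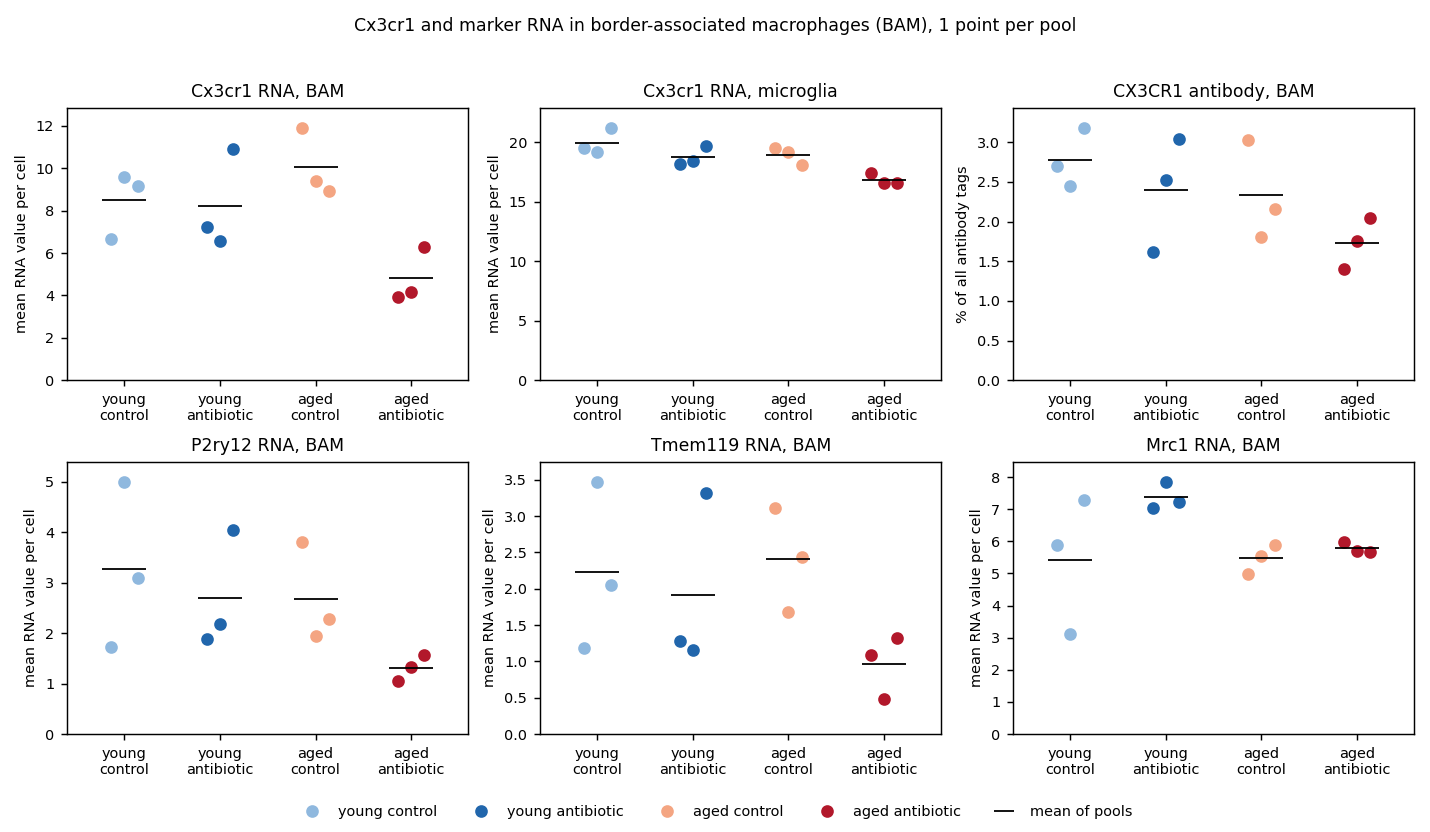
Pool means by group: Cx3cr1 RNA in BAM and microglia, the CX3CR1 share of antibody tags in BAM, and P2ry12, Tmem119 and Mrc1 RNA in BAM (vertical axes linear from 0; black bars are means of pools). In BAM the aged antibiotic pools of Cx3cr1, P2ry12 and Tmem119 lie below the aged control pools, while those of the BAM marker Mrc1 lie at 5.97, 5.70 and 5.66 against 4.97, 5.53 and 5.90.

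Ccr2 was highest in Ly6CHigh cells, followed by Ly6CLow cells. Its level was 5.83 ± 2.24 in Ly6CHigh (n = 11 pools), 3.12 ± 0.968 in Ly6CLow and 1.99 ± 0.515 in ILCs, then 1.34 ± 0.848 in BAM, 1.11 ± 0.784 in CD4+, 0.896 ± 0.548 in CD8+, 0.699 ± 0.390 in B cells, 0.179 ± 0.152 in neutrophils and 0.0362 ± 0.0137 in microglia. Every pair of neighbours in this order overlapped in pool range. Ly6CLow cells held 29.6% ± 5.98 and Ly6CHigh cells 28.2% ± 9.24 of the Ccr2 RNA, from 4.92% and 3.03% of the cells. The most alike genes were Ahr (0.977), the aryl hydrocarbon receptor, Ahnak (0.942) and Ncoa7 (0.934).

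The mean of Ccr2 was lower in aged than in young controls in Ly6CHigh, Ly6CLow and BAM cells, without passing the test in any. In Ly6CLow cells the pools stood at 3.36, 3.8 and 4.16 in young control, 4.09, 3.76 and 4.67 in young antibiotic, 2.26, 2.19 and 2.40 in aged control, and 2.60, 1.71 and 2.38 in aged antibiotic mice. No aged pool reached a young one. The difference in controls was -0.71 (SE 0.17), with an adjusted p of 0.0608 (limma), beside a median of -0.21 over all genes and 0.755% of genes called. With totals scaled to be equal, which moved the all-gene median to -0.09, the Ccr2 difference was -0.57 (adjusted p 0.127). It passed without aged antibiotic pool 2 (0.0353) and without aged control pool 3 (0.0347). Median raw UMIs per cell in this type were 11367.5 in young and 7274 in aged mice. The antibiotic differences were 0.14 (SE 0.17) in young and -0.05 (SE 0.17) in aged mice, and their 4 antibiotic contrasts called 0% of genes by limma, with 365 to 535 of 8613 at a raw p under 0.05.

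In BAM the Ccr2 pools stood at 2.33, 3.06 and 2.26 in young control, 1.89, 0.909 and 1.09 in young antibiotic, 0.270, 0.850 and 0.887 in aged control, and 1.27, 0.568 and 0.720 in aged antibiotic mice. The young control pools were the highest, with no overlap with any other group. The age difference in controls was -1.86 (SE 0.36), with an adjusted p of 0.055 (limma), in a comparison that called 0.0338% of genes. It passed when the young control pool of 17 cells was added (-2.00, adjusted p 0.0115), and it moved to -1.35 (0.324) without aged control pool 1. Without young control pool 1 the adjusted p was 0.460. In BAM cells without the 3 microglial genes it was -0.22 (SE 0.43), with an adjusted p of 0.931, on 2 pools a group. The antibiotic difference in young mice was -0.87 (SE 0.36), with an adjusted p of 0.779, beside 0.0113% of genes called. In aged mice it was 0.41 (SE 0.33), with an adjusted p of 0.763, against -2.61 (SE 0.43, adjusted p 0.513) in the cells without microglial genes, so its sign rests on which cells are counted.

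In Ly6CHigh cells Ccr2 varied widely among aged pools. It stood at 6.71, 7.65 and 7.85 in young control, 7.64 and 8.68 in young antibiotic, 2.91, 4.75 and 7.03 in aged control, and 5.33, 3.47 and 2.13 in aged antibiotic pools. The age difference in the pools of at least 20 cells was -0.63 (SE 0.35), with an adjusted p of 0.576 (limma), and the antibiotic difference in aged mice was -0.43 (SE 0.32), with an adjusted p of 0.999. Of all genes 0.125% were called by age and 0% by antibiotics in aged mice (163 of 8012 at a raw p under 0.05). The median raw UMI total was 13257.5 in young and 951 in aged Ly6CHigh cells. The 135 aged cells at 0 for Ccr2 had a median of 585 UMIs, and 96.3% of them had a Cx3cr1 value, while the 112 aged cells with Ccr2 had a median of 14562. The summed level of the microglial markers ran from 0.300 to 0.846 in young control and from 1.10 to 3.16 in aged control pools. The part of depth, of the correction of values and of these markers in the spread of Ccr2 and in the Cx3cr1 shares was not tested.

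In Ly6CLow cells Cx3cr1 was found less often beside Ccr2. Of young cells with Ccr2, 50.9% (exact 95% binomial interval 43.1 to 58.6, counting error only) also had Cx3cr1, against 81.0% (72.1 to 88.0) of those at 0 for Ccr2. In aged cells the shares were 68.3% (60.5 to 75.4) and 87.4% (82.0 to 91.7). The share was lower with Ccr2 in 5 of 6 young and 6 of 6 aged pools. Cells with Ccr2 were deeper, with median raw UMIs of 13388 against 5946 in young and 10982 against 2455 in aged cells. The part of depth and of the correction of values in this gap was not tested. CD8+ cells, whose Cx3cr1 is not assigned to a source, had a value in 32.1% of young and 31.5% of aged cells, at medians of 8287 and 6927.5 UMIs.

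**Figure D3:**
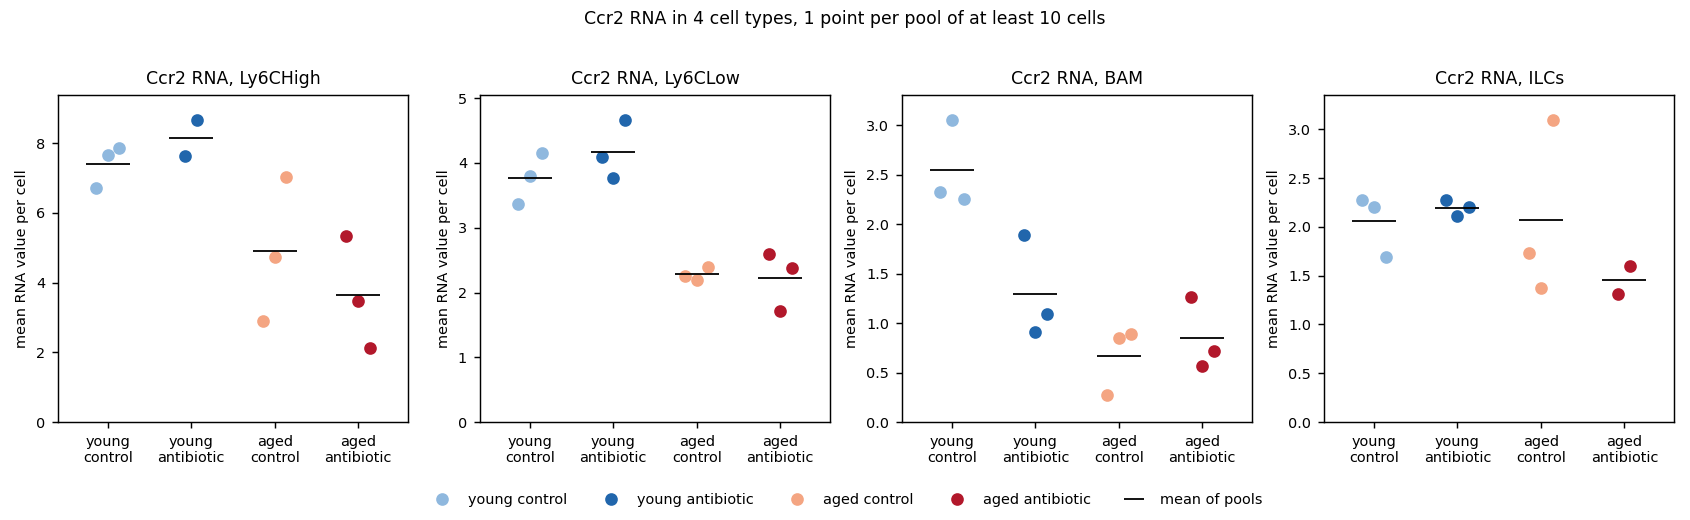
Mean Ccr2 RNA value per cell (vertical axis, linear from 0) in Ly6CHigh, Ly6CLow, BAM and ILCs by group. Each point is a pool of at least 10 cells and the black bar is the mean of the pools. In Ly6CLow cells the 6 young pools (3.36 to 4.67) lie above the 6 aged pools (1.71 to 2.60).

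CCR2 tags separated cell types less than Ccr2 RNA did. In the young well all pools of all types lay between 1.38 and 2.80 tags per cell, with 1.67 ± 0.0331 in microglia (RNA 0.0309) and 2.63 ± 0.161 in Ly6CHigh cells (RNA 7.71). In the aged well Ly6CHigh cells had 1.16 ± 0.303 tags and microglia 0.256 ± 0.0398. As a share of all tags of the cells the order turned, with 0.126% in microglia and 0.0413% in Ly6CHigh cells of young mice, and 0.124% and 0.0468% in aged mice. Such a share also depends on all other tags of a type. Young neutrophils carried 2.36 ± 0.170 CCR2 tags per cell at an RNA value of 0.168. The part of unspecific tags in these values was not tested, so they do not show CCR2 protein in a type.

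The age differences of these proteins depended on the scaling of tags. In controls the CCR2 share of all tags was 0.0274% ± 0.00276 in young and 0.0192% ± 0.00619 in aged Ly6CLow cells, and 0.127% and 0.123% in microglia. The CX3CR1 share in microglia was 10.0% ± 0.709 and 9.88% ± 0.665. By edgeR with TMM factors, which rescale each pool's total by the bulk of its antibodies, CCR2 differed by -0.96 in Ly6CLow cells (adjusted p 0.0177) and by -0.32 in microglia (0.00997), and CX3CR1 by -0.29 in microglia (0.0147). By edgeR on total tags without these factors, a setting added after seeing the data, the differences were -0.60 (adjusted p 0.190), -0.05 (0.744) and -0.02 (0.845), so none was called. Of the 34 antibodies 44.1% were called by age in Ly6CLow cells and 52.9% in microglia with TMM factors, so a call there sets no receptor apart. The CCR2 call in Ly6CLow cells was also lost without aged control pool 3 and without young control pool 2.

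Ccr1, a receptor for CCL3, CCL5 and related chemokines, was led by neutrophils at 3.41 ± 0.709 (n = 9 pools). It stood 2.81-fold above Ly6CHigh cells (1.21 ± 0.499) with no overlap of pools, followed by BAM (1.15 ± 0.244) and Ly6CLow cells (0.681 ± 0.290), which overlapped. Microglia held 22.1% ± 11.9 of Ccr1 RNA at a level of 0.0743 ± 0.0403, because they were most of the cells. The most alike genes were Inpp4a (0.979), F630028O10Rik (0.974) and Gm34084 (0.961). In neutrophils the age difference of Ccr1 was -0.09 (SE 0.28, adjusted p 0.995), in a comparison that called 0% of genes by limma (243 of 6684 at a raw p under 0.05).

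In microglia Ccr1 stood at 0.0618, 0.118 and 0.141 in young control, 0.0788, 0.0946 and 0.138 in young antibiotic, 0.0597, 0.0551 and 0.0332 in aged control, and 0.0206, 0.0438 and 0.0463 in aged antibiotic pools. Every aged pool lay below every young one. The difference in controls was -0.63 (SE 0.18), with an adjusted p of 0.0763 (limma), against 2.66% of genes called. It passed without young control pool 1 (-0.86, adjusted p 0.0118). Neutrophil RNA moved with it. The summed level of 5 neutrophil markers in microglia ran from 1.98 to 5.55 in young control and from 0.560 to 0.634 in aged control pools, with none at 0. In microglia with none of these markers, a choice made after seeing the data, the difference was -0.56 (SE 0.26), with an adjusted p of 0.498. The ratio of Ccr1 to the sum of S100a8 and S100a9 was 0.0316 ± 0.0296 in young and 0.0604 ± 0.0405 in aged microglia. In neutrophils it was 0.00246 ± 0.00150 and 0.00218 ± 0.000561. The part of neutrophil RNA in microglial Ccr1 was not tested directly.

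Microglial tests covered only Ccr1, Cx3cr1 and S1pr1, as the other 5 receptors had a mean under 0.05 there. Limma called none of the 3. Among all genes the young antibiotic contrast called 0.137%, the aged one 3.23% and the contrast over both ages 5.40%, while the test between the 2 ages called 0% (579 of 8759 at a raw p under 0.05).

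Cxcr2, the neutrophil receptor for CXCL1, CXCL2 and CXCL5, was highest in neutrophils. Its level was 2.51 ± 0.859, and its lowest pool (1.07) lay above every pool of the other types. The next mean was that of CD8+ cells at 0.0383, which came almost wholly from young control pool 3 at 0.412, followed by B cells at 0.0236 ± 0.0438. Neutrophils were 2.49% of cells and held 89.4% ± 8.32 of Cxcr2 RNA. It was at 0 in 506 BAM cells, which allows a share of up to 0.593% of cells with a value, and in 214 CD4+ cells, which allows up to 1.40%. The most alike genes were Ifit1bl2 (0.994), Ceacam10 (0.993) and Stfa2l1 (0.991), a neutrophil stefin. Pools stood at 3.04, 1.07 and 3.00 in young control, 2.50 and 3.86 in young antibiotic, 1.90 and 3.09 in aged control, and 2.50 and 1.63 in aged antibiotic mice. Groups overlapped, and the age difference was -0.31 (SE 0.30), with an adjusted p of 0.984 (limma).

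On pools of at least 10 neutrophils the antibiotic difference of Cxcr2 was 0.53 (SE 0.42) in young and -0.26 (SE 0.46) in aged mice. These comparisons called 0% of genes in young (302 of 6912 at a raw p under 0.05) and 0.0145% in aged mice, and none of the receptors. Of aged neutrophils, 78.4% (61.8 to 90.2) of those with Cxcr4 and 47.3% (35.6 to 59.3) of those without it had Cxcr2, at median depths of 9972 and 3266 UMIs. This gap rested on aged antibiotic pool 3, at 100% of 9 cells and 31.2% of 32 cells. In the other 3 aged pools with at least 5 cells of each class the shares were 77.8% and 72.7%, 70.0% and 69.2%, and 66.7% and 66.7%. In young ones the shares were 84.4% (77.2 to 90.1) and 90.6% (83.3 to 95.4) at 10055 and 9671.5 UMIs. Cxcr2 above 0 occurred in 0.415% of microglia.

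Cxcr3 and Cxcr6 marked T cells and ILCs. Cxcr3, the receptor for the interferon-induced ligands CXCL9 and CXCL10, stood at 1.55 ± 0.362 in CD8+ (n = 11 pools), 1.27 ± 0.304 in CD4+, 0.616 ± 0.343 in ILCs and 0.291 ± 0.179 in B cells, with overlapping neighbours. Cxcr6, the CXCL16 receptor of tissue-resident T cells, stood at 2.15 ± 0.610 in CD8+, 1.98 ± 0.749 in CD4+ and 1.81 ± 0.645 in ILCs, which overlapped. It then dropped 7.70-fold to 0.235 ± 0.182 in B cells, without overlap. Cxcr6 was at 0 in all 506 BAM cells. Which type held most of the RNA differed between the ages, as CD8+ cells were 1.64% of young and 9.67% of aged cells. ILCs held 45.1% of Cxcr6 RNA in young (14.7% to 88.3% over 6 pools) and 13.3% in aged pools (2.55% to 45.1%), and CD8+ cells 25.2% (10.4% to 32.6%) and 66.2% (40.7% to 79.7%). Of Cxcr3 RNA CD8+ cells held 32.1% ± 8.53 in young and 65.1% ± 12.5 in aged pools. Most like Cxcr3 were Med10 (0.986), Tcf7 (0.982), a T cell transcription factor, and Insl6 (0.981). Most like Cxcr6 were Gm2682 (0.992), Gm14029 (0.988) and Zap70 (0.987), the T cell receptor kinase.

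In CD8+ cells of aged mice Cxcr6 stood at 2.88, 1.99 and 3.05 in control and at 1.84, 1.61 and 2.07 in antibiotic pools. The groups overlapped at 1 pair of pools, and the difference was -0.49 (SE 0.15), with a raw p of 0.00478 and an adjusted p of 0.425 (limma). Cxcr3 stood at 1.82, 1.51 and 1.76 against 1.57, 1.49 and 1.31 (-0.21, SE 0.12, adjusted p 0.711). None of 6 receptors was called there, in a comparison that called 0.121% of genes. In young mice only the 5 pools of at least 10 CD8+ cells could be compared, at 1.52 and 2.29 in control and 2.40, 2.87 and 1.17 in antibiotic mice for Cxcr6 (0.10, SE 0.31). That contrast called 0.145% of genes and no receptor.

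ILCs gave no receptor call either. By age 0.407% of genes were called, and Cxcr6 differed by -0.01 (SE 0.24), Ccr2 by 0.02 (SE 0.31) and Cxcr4 by -0.93 (SE 0.38, adjusted p 0.543, limma). The fit left out young antibiotic pools 1 and 2, aged control pool 1 and aged antibiotic pools 1 and 2, which held 5 to 18 ILCs. With pools of at least 10 cells, 0.0600% of genes were called for antibiotics in young and 0.0840% in aged mice, and no receptor. In that fit S1pr1 stood at 0.0625, 0.0400 and 0 in young control and 0.167, 0.389 and 0.267 in young antibiotic ILCs, without overlap (1.96, SE 0.59, raw p 0.00282, adjusted p 0.811).

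Cxcr4, the CXCL12 receptor, was measured in every type and was low in microglia. It ran from 1.59 ± 0.499 in B cells through 1.41 ± 0.605 in neutrophils, 1.01 ± 0.263 in CD8+, 0.988 ± 0.258 in Ly6CLow, 0.957 ± 0.386 in CD4+, 0.923 ± 0.425 in Ly6CHigh and 0.695 ± 0.344 in ILCs to 0.516 ± 0.292 in BAM, and all these neighbours overlapped. Microglia lay 25.4-fold lower at 0.0203 ± 0.0139, without overlap. B cells held 23.9% ± 11.9 of its RNA in young and 15.5% ± 6.56 in aged pools, Ly6CLow cells 19.0% ± 8.82 and 17.9% ± 6.00, and CD8+ cells 7.35% ± 4.01 and 28.4% ± 4.44. Most alike were Arhgap15 (0.974), Stk17b (0.97) and Ezr (0.964), which encodes ezrin.

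Cxcr4 in BAM stood at 0.282, 0.176 and 0.246 in young control, 0.528, 0.455 and 0.362 in young antibiotic, 0.459, 0.750 and 0.194 in aged control, and 0.758, 0.977 and 1.00 in aged antibiotic pools. Antibiotic pools lay above control pools at both ages without overlap. Neither difference passed, at 0.66 (SE 0.35, adjusted p 0.820) in young and 1.04 (SE 0.31, raw p 0.00235, adjusted p 0.223) in aged mice by limma. The aged value was called (0.36, adjusted p 0.00715) when logs were taken per cell before averaging. CXCR4 tags were too few to set against this RNA, with 9 of 139 aged control and 1 of 127 aged antibiotic BAM cells carrying a tag (edgeR adjusted p 0.720). Aged B cells carried 0.360 ± 0.299 CXCR4 tags per cell, Ly6CHigh cells 0.205 ± 0.148 and microglia 0.0707 ± 0.0190.

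In Ly6CHigh cells Cxcr4 differed by -1.33 (SE 0.47, adjusted p 0.436) with age, in pools of 1.23 and 1.45 against 0.375, 0.292 and 1.10. In B cells it stood at 2.41, 1.74 and 1.88 in young control and 0.867, 1.07 and 1.58 in aged control pools, without overlap (-0.78, SE 0.28, adjusted p 0.328). None of the 7 receptors tested in B cells was called, beside 0.0595% of genes by age and 0% by antibiotics in young (375 of 8403 at a raw p under 0.05) and in aged mice (284). In CD4+ cells Cxcr4 stood at 0.50 and 0.357 in young control against 1.37 and 1.10 in aged control pools (1.43, SE 0.38, adjusted p 0.431, limma on pools of at least 10 cells).

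S1pr1, the egress receptor, was highest per cell in CD4+ and B cells over all pools. It stood at 0.673 ± 0.480 in CD4+ (n = 8 pools), 0.574 ± 0.282 in B cells, 0.382 ± 0.369 in CD8+, 0.293 ± 0.129 in BAM and 0.232 ± 0.0296 in microglia, with overlapping neighbours. The place of CD8+ cells in this order differed between the ages, at 0.716 ± 0.287 in young and 0.105 ± 0.0496 in aged pools, the latter all below every microglial pool. ILCs, Ly6CLow, Ly6CHigh cells and neutrophils were at 0.0998 or less. Since microglia were most of the cells they held 73.4% ± 10.0 of the S1pr1 RNA. Microglial pools lay within 0.193 to 0.280, and the differences were 0.11 (SE 0.11) by age and 0.02 (SE 0.08) for antibiotics over both ages. Most alike were Gpr183 (0.928), an oxysterol receptor that positions lymphocytes, Smyd4 (0.920) and Trim24 (0.915).

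In CD8+ cells S1pr1 fell with age. Pools stood at 1.10 and 0.765 in young control, 0.350, 0.533 and 0.833 in young antibiotic, 0.107, 0.172 and 0.0992 in aged control, and 0.115, 0.0182 and 0.117 in aged antibiotic mice. Every young pool of at least 10 cells lay above every aged pool. Only 1 young control pool held 20 CD8+ cells, so the comparison was made on pools of at least 10 cells, which left out young control pool 2 with 5 cells. S1pr1 was at 0 in those 5 cells, so the pool left out lay below every aged pool. The difference in controls was -2.48 (SE 0.43), a 5.58-fold lower value with an adjusted p of 0.0269 (limma). S1pr1 was the 1 call among 6 receptors, beside 0.241% of all genes (20 of 8287). The call rests on few pools and was lost without young control pool 1 (adjusted p 0.0592), young control pool 3 (0.0779), or aged control pool 1 (0.112), 2 (0.0609) or 3 (0.146), while the S1pr1 differences stayed between -2.73 and -2.23. Antibiotics gave -0.71 (SE 0.43, adjusted p 0.422) in young and -0.49 (SE 0.31, adjusted p 0.744) in aged mice.

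Klf2, which drives S1pr1, was also lower in aged than in young control CD8+ pools, without passing. It stood at 9.74 and 5.59 in young control, 3.25, 1.00 and 5.61 in young antibiotic, 2.21, 1.53 and 2.21 in aged control, and 1.34, 2.28 and 2.84 in aged antibiotic pools. The age difference in controls was -1.89 (SE 0.50, adjusted p 0.149, limma). With the antibiotic pools counted the ages overlapped, as 1 young antibiotic pool (1.00) lay below every aged pool. Cd69 showed no such pattern, with 2.52 and 4.35 in young control and 3.71, 2.75 and 3.45 in aged control pools (-0.01, SE 0.23).

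CD4+ cells were fewer. S1pr1 stood at 1.19 and 1.43 in young control, 0.280 in the 1 young antibiotic pool of at least 10 cells, 0.700 and 0.900 in aged control, and 0.600, 0.120 and 0.167 in aged antibiotic pools. Control pools did not overlap between the ages, nor did control and antibiotic pools of aged mice, but neither the age difference (-0.68, SE 0.55, adjusted p 0.913) nor the antibiotic difference in aged mice (-1.55, SE 0.50, raw p 0.00543, adjusted p 1.00) passed in limma. These comparisons called 0.0364% and 0.0121% of genes and no receptor. Cd69 in aged CD4+ cells stood at 2.13 and 2.90 in control and 4.47, 5.20 and 4.83 in antibiotic pools (0.94, SE 0.23, adjusted p 0.846). Klf2 stood at 11.4 and 8.29 in young control against 3.70 and 2.65 in aged control pools (-1.62, SE 0.33, adjusted p 0.144).

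**Figure D4:**
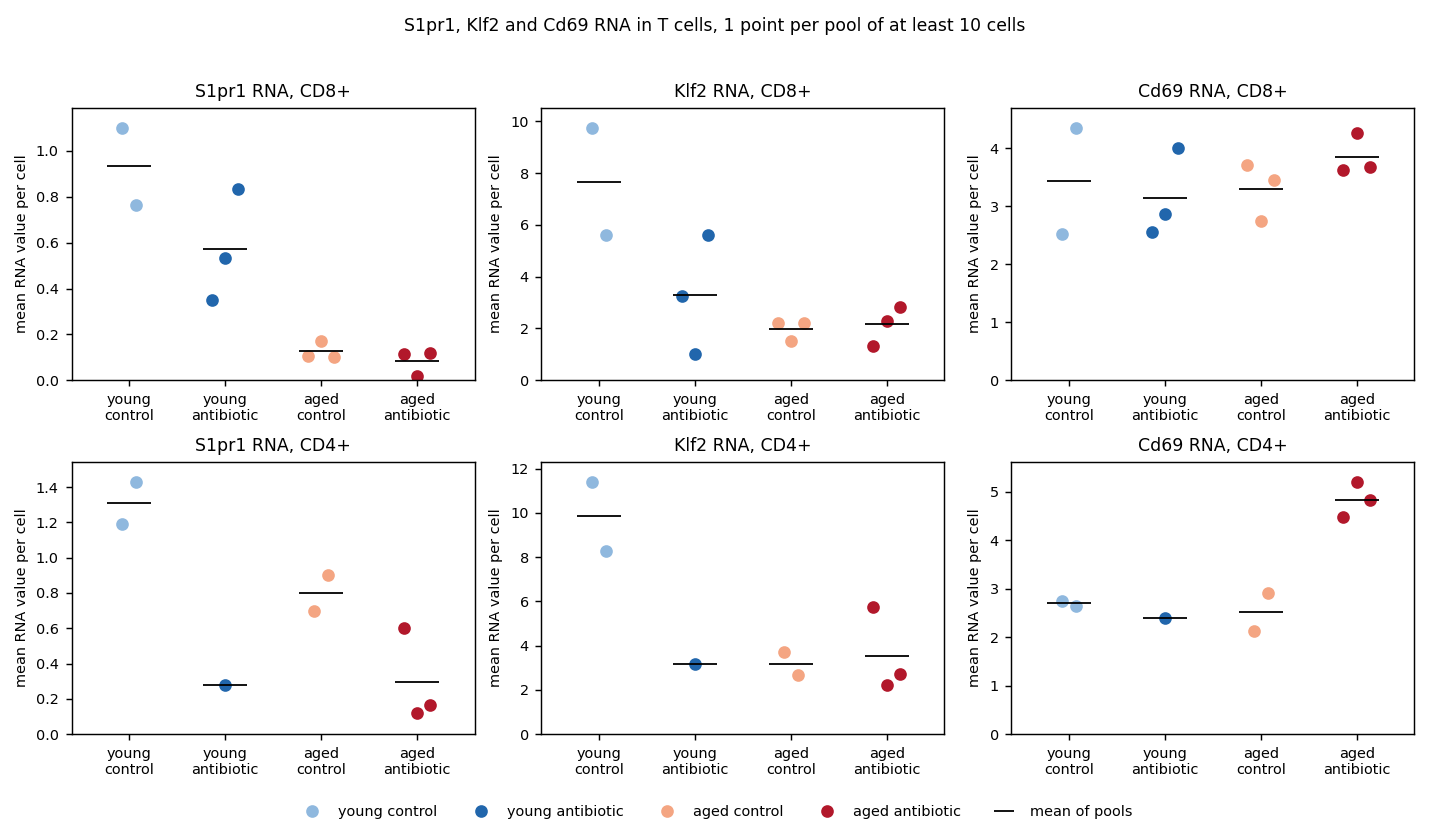
Mean RNA value per cell (vertical axes, linear from 0) of S1pr1, Klf2 and Cd69 in CD8+ (top) and CD4+ cells (bottom) by group. Points are pools of at least 10 cells and black bars their means. In CD8+ cells the S1pr1 pools of young mice (0.350 to 1.10) lie above those of aged mice (0.0182 to 0.172).

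In single young CD8+ cells S1pr1 was found less often beside Cxcr6 or Cxcr3. S1pr1 was above 0 in 12.1% (7 of 58, interval 4.99 to 23.3) of young cells with Cxcr6 and in 52.1% (25 of 48, 37.2 to 66.7) of those at 0 for Cxcr6, at median depths of 7642.5 and 8965.5 UMIs. The share was lower with Cxcr6 in 5 of 5 young pools that held 5 cells of each class. Split by Cxcr3, S1pr1 was above 0 in 11 of 71 cells with Cxcr3 (15.5%) and in 21 of 35 without, lower with Cxcr3 in 4 of 4 pools. Neutrophils, the lowest of the 9 types for S1pr1 (0.0139), had it in 3 of 241 young cells (1.24%) at a median of 9893 UMIs and in 4 of 111 aged cells at 6182. Microglial pools, at 0.232 ± 0.0296 per cell, all lay above the aged CD8+ pools. The part of RNA from other cells in the CD8+ shares was not tested.

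In aged CD8+ cells the 2 shares lay within each other's intervals. S1pr1 was above 0 in 6.98% (31 of 444, 4.79 to 9.76) of aged cells with Cxcr6 and in 8.99% (16 of 178, 5.23 to 14.2) of those at 0, at depths of 6927.5 and 6930.5, and it was lower with Cxcr6 in 2 of 6 pools. Split by Cxcr3, S1pr1 was above 0 in 8.30% (5.94 to 11.2) of aged cells with Cxcr3 and in 5.49% (2.54 to 10.2) of those without, at depths of 7174 and 5901.5, higher with Cxcr3 in 4 of 6 pools. Cxcr6 and Cxcr3 were found together at both ages. Cxcr6 was above 0 in 71.8% (59.9 to 81.9) of young CD8+ cells with Cxcr3 against 7 of 35 cells (interval 8.44 to 36.9%) without, and in 75.1% (70.9 to 79.0) against 61.0% (53.1 to 68.5) in aged cells. The share was higher in 4 of 4 young and 6 of 6 aged pools. Microglia had Cxcr6 in 0.198% of young and 0.413% of aged cells, at median depths of 6809 and 7118. Among CD4+ cells S1pr1 was above 0 in 27.5% (14.6 to 43.9) of young cells with Cxcr6 and 50.0% (31.9 to 68.1) without, and in 14.5% (7.45 to 24.4) and 37.9% (26.2 to 50.7) of aged ones. The share was lower with Cxcr6 in 3 of 3 young and 4 of 5 aged pools. Split by Cxcr3 the shares in CD4+ cells were 27.3% (15.0 to 42.8) with and 53.6% (33.9 to 72.5) without it in young mice, lower in 2 of 2 pools. In aged mice they were 30.2% (20.8 to 41.1) with and 17.9% (8.91 to 30.4) without, higher in 3 of 5 pools, so the 2 ages went opposite ways.

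**Figure D5:**
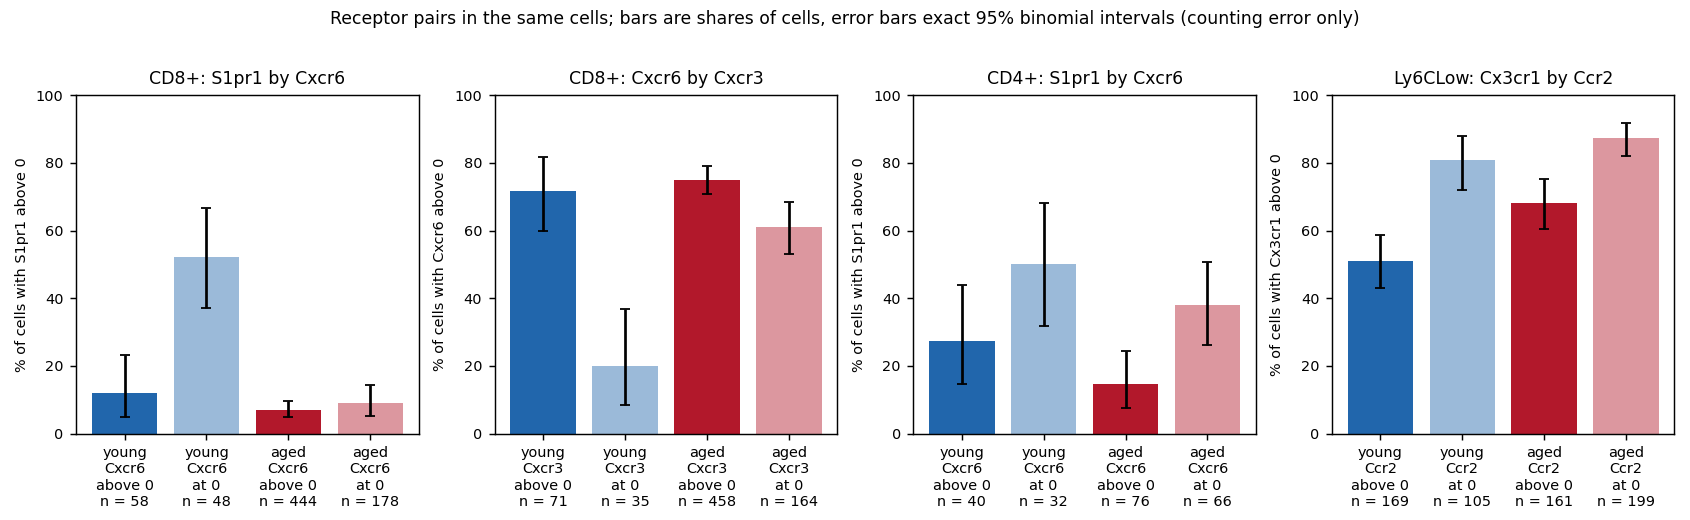
Share of cells with a value above 0 for a second receptor (vertical axis, percent) among cells above 0 and at 0 for a first one, by age, in CD8+, CD4+ and Ly6CLow cells. Error bars are exact 95% binomial intervals, which cover counting error only, and n is the number of cells. In young CD8+ cells S1pr1 stands at 12.1% with and 52.1% without Cxcr6, in aged ones at 6.98% and 8.99%.

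The wider pathway was read from lists set out by function, with genes tested per cell type as above. Of 20 chemokine ligands, 11 could be tested in microglia, and with age 4 rose and 0 fell, with a list median of 0.56 beside 0.02 over all genes. Over all genes 2.66% were called there, 193 higher and 40 lower of 8759. Ccl5, a ligand of CCR1, rose by 1.17 (SE 0.18, adjusted p 0.000791), from 0.0813 ± 0.0134 to 0.257 ± 0.111 in controls (SD, n = 3 pools each). T cell RNA in microglia moved with it, as the summed level of 4 CD8+ markers ran from 0.00612 to 0.0184 in young control and from 0.0321 to 0.0750 in aged control microglia, with none at 0, and its part in the Ccl5 difference was not tested. Ccl2, the CCR2 ligand, rose by 0.90 (SE 0.22, 0.0331), from 1.00 ± 0.356 to 1.90 ± 0.617, and Ccl7, another CCR2 ligand, by 0.89 (SE 0.21, 0.0241), all by limma. Ccl7 was near the floor, at 0.0379 ± 0.0114 in young control and 0.120 ± 0.0587 in aged control pools. Its mean was 0.0297 in young antibiotic and 0.0587 in aged antibiotic pools. Both young means lay under the 0.05 needed for a test, so Ccl7 was tested through its aged pools. The fourth was Cxcl16, named here after its value was seen because it is the ligand of CXCR6. It rose by 0.61 (SE 0.09, 0.000594), from 0.408 ± 0.0269 to 0.654 ± 0.0868, and fell by 0.25 with antibiotics over both ages (SE 0.06, adjusted p 0.0264).

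In Ly6CLow cells 3 of 13 tested ligands fell with age and 0 rose, with a list median of -0.31 beside -0.21 over all genes, of which 0.755% were called, 47 higher and 18 lower of 8613. Ccl2 fell by 1.32 (SE 0.24, adjusted p 0.0122), from 2.16 ± 0.511 to 0.833 ± 0.184, Ccl9 by 1.18 (SE 0.22, 0.0171) and Ccl6 by 0.83 (SE 0.18, 0.0411), by limma. Among controls Ccl2 thus moved up with age in microglia and down in Ly6CLow cells, and the difference between the types was not tested. In Ly6CLow cells Ccl2 stood at 3.05 ± 0.828 in young antibiotic and 2.20 ± 0.502 in aged antibiotic pools. The latter (1.62 to 2.56) lay above the aged control pools (0.629 to 0.986), though antibiotics in aged mice called 0 of 8613 genes there. No ligand was called in the other types. Markers of other cells and depth moved with age in Ly6CLow cells. The summed level of 4 BAM markers ran from 1.48 to 2.41 in young control and from 0.629 to 1.32 in aged control pools, that of 5 ILC markers from 0.488 to 1.86 and from 2.67 to 5.03, and that of 4 CD8+ markers from 0.0244 to 0.483 and from 0.302 to 1.01, with none at 0. Cells under 2000 raw UMIs were 4.38% of young and 31.7% of aged Ly6CLow cells. The part of these shifts in the calls of this cell type was not tested.

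Of 21 other chemoattractant receptors, 2 were called in some comparison. Gpr183 fell in BAM with antibiotics in aged mice by 1.04 (SE 0.19, adjusted p 0.0118, limma), from 2.18 ± 0.405 to 1.03 ± 0.151, as 1 of 4 tested, in a comparison that called 0.158% of genes. The summed microglial markers of BAM were also lower in that comparison, as given above for Cx3cr1. Their part in the Gpr183 difference was not tested. Ccr8, a receptor of type 2 lymphocytes, rose in ILCs with age by 2.80 (SE 0.51, 0.0421), as 1 of 8 tested, beside 0.407% of genes called. Its level was 0.0208 ± 0.0180 in young control (n = 3 pools) and 0.456 ± 0.222 in aged control ILCs (n = 2). The 1 young antibiotic pool of that fit stood at 0 and the 1 aged antibiotic pool at 0.400. Ccr8 was thus near the floor in young pools, under the mean needed for a test, and was tested through its aged pools.

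None of the 6 genes of sphingosine 1-phosphate handling was called by limma, with 2 to 4 testable per type and at most 1 at a raw p under 0.05 in any comparison. Of 14 gene names listed for receptor signalling and control, 13 were in the RNA table and 12 could be tested in microglia. With age 2 were called lower and 0 higher there, beside 2.66% of all genes called. Klf2 fell with age in microglia by 0.59 (SE 0.12, adjusted p 0.00746, limma), from 32.0 ± 5.65 to 21.2 ± 1.95. Rgs1, which shortens chemokine receptor signals, fell there by 0.41 (SE 0.08, 0.00675) and rose with antibiotics in aged mice by 0.40 (SE 0.08, 0.00927), contrasts that share the aged control pools (3.86 ± 0.195, against 5.15 ± 0.466 in young control and 5.10 ± 0.408 in aged antibiotic mice). For antibiotics in aged mice Rgs1 was the 1 call of 12 tested, beside 3.23% of all genes. Over both ages it was again the 1 call of 12 (0.28, SE 0.06, adjusted p 0.00598, limma), beside 5.40%. Young antibiotic pools stood at 5.81 ± 0.532, and in young mice alone 0 of the 12 were called. Cd69 rose with age in Ly6CLow cells by 1.82 (SE 0.36, 0.0219) and in ILCs by 1.38 (SE 0.24, 0.0375), and Klf2 fell in ILCs by 1.43 (SE 0.26, 0.0410). In Ly6CLow cells 1 of 13 tested was called, beside 0.755% of all genes. In ILCs 1 was called higher and 1 lower of 13, beside 0.407%. With pools of at least 10 cells the Cd69 call in ILCs was lost (0.97, adjusted p 0.412) and that of Klf2 held (-1.76, 0.00115). The Cd69 call in Ly6CLow cells stands beside the marker and depth shifts given for that type. The ILC calls moved with the Ncr1 shift given above and with Gata3, an ILC2 gene, which was above 0 in 34.2% of young and 51.4% of aged ILCs. In ILCs the summed level of 4 NK markers ran from 10.1 to 13.3 in young control and from 2.00 to 4.03 in aged control pools of at least 10 cells. That of 4 CD8+ markers reached 2.20 and 9.23, and that of 4 CD4+ markers 1.60 and 5.03, with overlapping ranges and with Cd4 at 0 in young control ILCs. The part of these shifts in the ILC calls was not tested.

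Across the cell types fitted on pools of at least 20 cells, 118 comparisons of a receptor were made, and 1 was called, that of Cx3cr1 in aged BAM. In Ly6CHigh cells on pools of at least 10 cells, antibiotics in young mice called 0% of genes (298 of 8190 at a raw p under 0.05).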

How the data were processed

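Per the labels, single cells of 12 hashtagged pools were profiled for RNA and surface antibodies (CITE-seq). Cell Ranger 3.0.2, Seurat 3.0.1 and mm10 are named in the submitters' processing notes, and the filters on cells are not given in the sources used here. The deposited RNA values are a score, namely UMI numbers that SCTransform corrected and wrote as whole numbers, so no count model was used on them. The deposited antibody table holds raw tag counts, and the deposited metadata hold raw count totals per cell, cell types and hashtag calls. All cells were deposited as singlets, and 34 metadata columns were not used.

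RNA values were averaged per pool and type and tested with limma 3.58.1 (R 4.3.3) with a trended prior variance on log2(mean + 0.05), leaving out genes whose mean over pools was under 0.05. Types other than microglia and Ly6CLow were fitted on pools of at least 20 cells with at least 2 pools per arm. Summed antibody tags of each pool were compared by edgeR 4.0.16 (quasi-likelihood, TMM), with DESeq2 1.42.0 as an alternative. Adjusted p-values are Benjamini-Hochberg within a contrast over all features. Steps were tested on simulated data. Intervals and limits for a count of 0 cover counting error only.

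The receptors, gene lists and tests were chosen with earlier results of these data known. All 8 receptors are described. Of each list up to 3 genes with the largest change past the threshold are named per contrast, and for each receptor the 3 genes with the highest Pearson correlation over 9 cell types. RefSeq gives the gene positions. Some genes of these lists are not reported here.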

Additional observations from a re-analysis of the deposited data

How the results depend on the processing

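Of 118 receptor comparisons and 1911 alternative values, 0 called values reversed, 151 uncalled values changed sign, 4 values of 1 comparison (Cx3cr1 in BAM) lost the call, and 16 values of 4 comparisons gained one. With the mean of logs per cell the number of receptors called by age became 1 (Ccr1) in microglia and 1 (Ccr2) in Ly6CLow cells, against 0 in each, and leaving out 1 pool gave 0 to 1 in both. In the other cell types 1 receptor was called, against 0 in cells without microglial markers (BAM only), 3 with the mean of logs, 3 with pools of at least 10 cells, 2 with a pseudocount of 0.5, 2 with totals scaled to be equal, and 0 to 2 without 1 pool. Receptor antibodies called by age in microglia numbered 2, against 1 to 2 without 1 pool and 0 on total tags without TMM factors. In Ly6CLow cells they numbered 1, against 2 by limma on centred log ratios, 0 on total tags without TMM factors and 0 to 1 without 1 pool. In cells of at least 2000 raw UMIs the microglial level of Cx3cr1 was 20.1, against 18.6. Alternatives on BAM without microglial markers, microglia without neutrophil markers, the test of the difference of antibiotic effects in BAM, BAM antibodies, tags without TMM factors, and CD8+ S1pr1 without single pools were added after seeing the data. Counts of all genes called moved by over 1.5 times for antibiotics in aged CD8+ cells (10, and 1 with pools of at least 10 cells), for age in ILCs (34, and 76) and Ly6CHigh cells (10, and 0), for antibiotics in young BAM (1, and 2), and for age in B cells (5, and 9 with scaled totals). Scaling moved the split of genes higher and lower from 189 and 284 to 268 and 260 for antibiotics over both ages in microglia, and from 47 and 18 to 65 and 9 for age in Ly6CLow cells. No paired analysis was possible because hashtag numbers name different mice in each arm and control and antibiotic pools share none. Depth limits Ly6CHigh cells of aged mice most.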

Other observations

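One value stood apart in the antibody data. B cells of aged antibiotic pool 1 carried 960 CX3CR1 tags per cell on average. Of 23044 such tags in 24 cells, 22467 lay in a single cell, and without it the mean was 25.1 tags per cell, against 14.0 and 27.9 in the other aged antibiotic pools.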
